A study of Mus musculus with 128 samples.

Results

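The step from 2 to 4 cells was followed in single wildtype mouse embryos across all genes. Its members were the 16 libraries labelled wildtype at the 4-cell stage and the 16 labelled wildtype at the 2-cell stage, chosen by their labels and not by any measured value. They are 32 of the 128 libraries of the series, which also holds wildtype oocytes and 8-cell embryos and the same 4 stages from Kdm4a-knockout mothers. Each library is the polyadenylated RNA of a single C57BL/6 embryo, amplified with a SMART-Seq kit, sequenced as read pairs and summarised as an estimated count per gene.

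The 4-cell embryos were sampled at 2.5 days and the 2-cell embryos at 1.5 days post fertilization. Both groups have the genotype WT (m+/p-): wildtype eggs were fertilized with sperm that lacked Kdm4a, a histone demethylase gene, so that a working copy came from the mother alone. They are therefore heterozygous for the knockout allele, and no embryo with 2 working copies is part of the comparison. Where knockout embryos are used, both of their parents lacked the gene. The egg coat was removed with acid before lysis. The labels name no mothers, so p-values measure the spread between embryos.

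At fertilization the mouse embryo runs on RNA and protein that the oocyte made while it grew. In the days that follow the stored transcripts are deadenylated and degraded, and the embryo's own genome is switched on, in a minor wave in the zygote and a major wave in the 2-cell embryo. The 2-cell stage also has a transient programme of its own, with genes of the Zscan4 and Tcstv families that are then turned off. By the 4-cell stage the embryo depends on its own transcripts. The comparison of the 4-cell with the 2-cell stage therefore asks which transcripts are gained and which are lost after the main wave of genome activation.

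Total counts ran from 1690323 to 2562145 in 4-cell and from 1754731 to 2914445 in 2-cell libraries, with means of 2025210 ± 277437 and 2082680 ± 356573 (SD, n = 16 each). The difference was within the spread between embryos (two-sided permutation test with 100000 resamples, p = 0.62). Levels are given as CPM, counts scaled to a library total of 1000000, and are not divided by gene length. No spike-in was used, so a level is a share of the library: less of a transcript and more of all the others cannot be told apart, nor can decay of a transcript and loss of its poly(A) tail, since the kit primes on that tail. A gene with no count in any of the 16 4-cell libraries may still have a level of up to 0.0926 CPM there, which is 3 counts over the group and covers counting error only.

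Kdm4a, the gene disrupted in the series, had 0, 3.36 and 10.7 CPM in 4-cell embryos (lowest, median and highest of 16), against 5.09, 16.5 and 22.6 CPM in 2-cell embryos. The ranges overlapped, and 1 of the 4-cell embryos had no Kdm4a count. It was lower in 4-cell embryos, with a log2 fold change of -1.98 ± 0.35 (4-cell over 2-cell, ± standard error; edgeR quasi-likelihood test with Benjamini-Hochberg adjustment, adjusted p = 3.54e-06). Means in embryos of knockout mothers were 1.76 ± 1.47 CPM at 4 cells and 2.65 ± 1.83 CPM at 2 cells (SD, n = 16 each), against 4.55 ± 3.52 and 15.1 ± 4.83 CPM in wildtype. Kdm4a (ENSMUSG00000033326.15) lies on the minus strand of chromosome 4, from 118136957 to 118180043 (mm10, GENCODE M21 annotation).

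2 of the 16 4-cell embryos were most often the highest among genes that fell, each with another set of high transcripts. Of the genes found lower at 4 cells, described below, 3645 varied between 4-cell embryos, and replicate 11 was highest in 684 (18.8%). It was lowest in 488 of the 2820 genes found higher (17.3%). It also had high levels of some genes of the 2-cell programme. Its level of Zfp352, a zinc finger gene of that programme, was 557 CPM, against 208 CPM in the next embryo, replicate 12, and a median of 1.73 CPM. Tcstv3 was at 295 CPM there and Usp17lc at 226 CPM, with 27.7 and 18.5 CPM in the next embryos. Zscan4c and Zscan4d were also highest there, at 11.3 and 15.3 CPM, but far below their 2-cell medians of 395 and 519.9 CPM. Replicate 1 was highest in 559 of the 3645 genes (15.3%) but lowest in 86 of the 2820 (3.05%), and some oocyte transcripts were high in it. Rfpl4 was at 235 CPM there with 22.2 CPM in the next embryo, which gave a log2 fold change of -9.05 ± 0.64 with and -10.37 without this embryo, and Zbed3 at 181 CPM with 34.2 CPM in the next. Other embryos deviated as well. 4-cell replicate 3 was highest in 422 of the 3645 genes (11.6%) and lowest in 399 of the 2820 (14.1%). Among 2-cell embryos replicates 4, 3 and 10 were highest in 22.2%, 17.8% and 15.4% of 2819 genes found higher at 4 cells. No embryo was left out, and values without 4-cell replicates 1 and 11 are given where they differ.

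**Figure D1:**
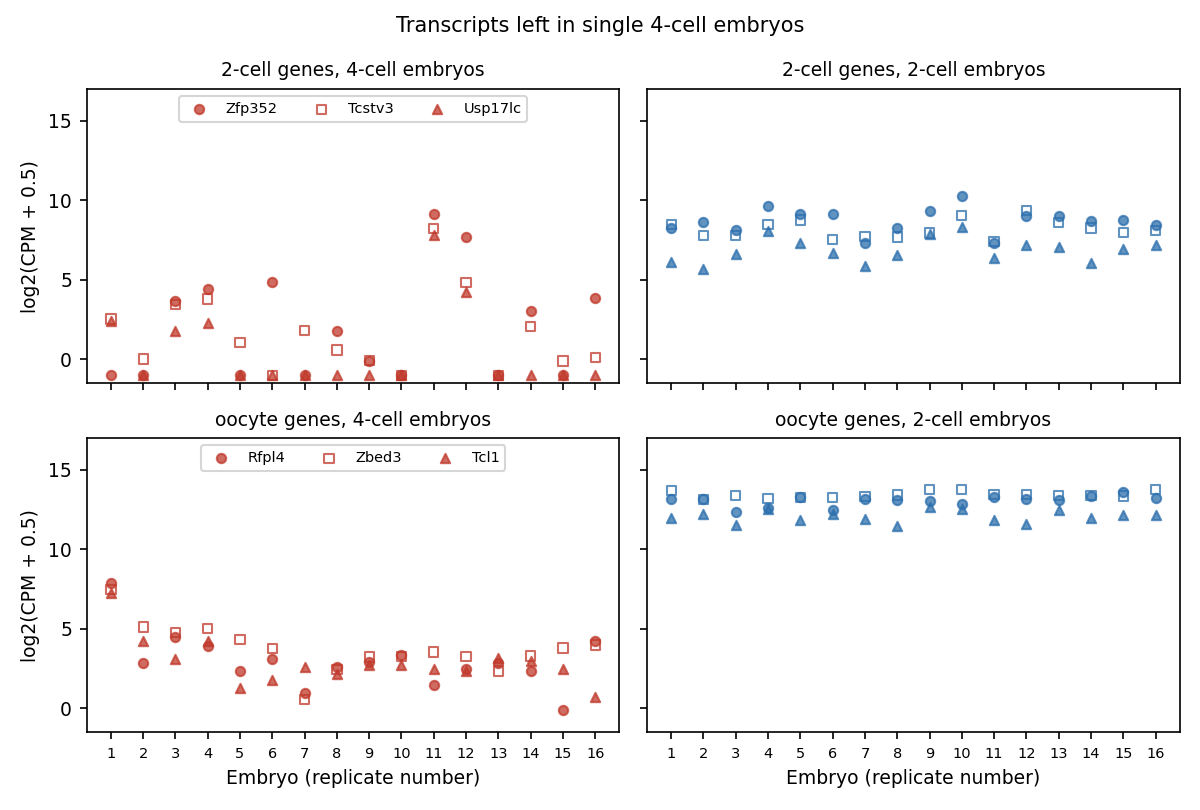
Levels of 3 genes of the 2-cell programme (top) and 3 oocyte genes (bottom) in each 4-cell embryo (left, red) and each 2-cell embryo (right, blue), as log2 of CPM plus a pseudocount of 0.5, by replicate number. Among 4-cell embryos replicate 11 has the highest level of all 3 genes of the 2-cell programme, and replicate 1 has that of all 3 oocyte genes.

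The transcriptome was largely exchanged between 2 and 4 cells. Of 8856 genes with enough counts to be tested, 2820 (31.8%) were higher and 3755 (42.4%) were lower in 4-cell embryos by the edgeR test, that is with an adjusted p below 0.05 and a change of 2-fold or more, so that 74.2% changed in one direction or the other. In 1527 genes (17.2%) all 16 4-cell embryos lay above all 16 2-cell embryos, and in 2177 genes (24.6%) all lay below. The losses were deeper than the gains. The median log2 fold change was 2.24 among the genes called higher and -3.38 among those called lower, and over all genes tested it was -0.34. A log2 fold change of at least 4 in size was reached by 308 genes called higher and by 1566 called lower. Of the genes called lower, 110 had no count in any 4-cell embryo, while a single gene called higher, Dffb, had none in any 2-cell embryo.

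Measured as shares of a library, the exchange involved most of the RNA. The 2820 genes called higher took 58.3%, 64.7% and 67.8% of the counts of 4-cell embryos (lowest, median and highest), against 8.54%, 10.6% and 16.1% in 2-cell embryos. The 3755 genes called lower took 6.14%, 7.07% and 10.99% in 4-cell embryos, against 59.3%, 66.7% and 70.8% in 2-cell embryos. These shares describe the genes that were called and are no test. At the stages that did not choose the genes, the shares stayed near those of the adjacent stage: the genes called higher had a median share of 12.02% in MII oocytes, the mature unfertilized eggs, and of 66.8% in 8-cell embryos, and those called lower had 67.8% and 7.09%. The highest share of the genes called lower and the lowest share of those called higher among 4-cell embryos were both in replicate 11.

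**Figure D2:**
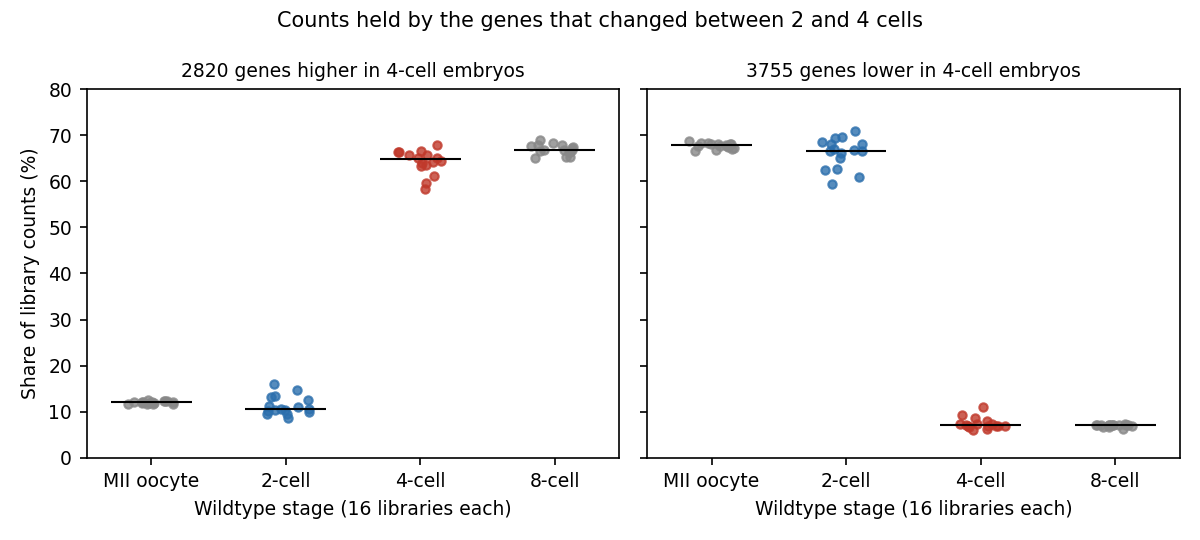
Percent of each library's counts held by the genes called higher (left) and lower (right) in 4-cell against 2-cell wildtype embryos, for the 4 wildtype stages; each dot is a library and each line a median of 16. The medians of the genes called higher are 12.02, 10.6, 64.7 and 66.8% from oocyte to 8 cells, and those of the genes called lower are 67.8, 66.7, 7.07 and 7.09%; oocyte and 8-cell libraries did not choose the genes.

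Genes of the 2 classes differed in where they were found at the outer stages. Of the genes called higher, 1992 (70.6%) had a mean of at least 1 CPM in MII oocytes and 2820 (100%) had one in 8-cell embryos. Of the 2281 tested genes that were not called, 90.4% had one in MII oocytes and 99.5% in 8-cell embryos. Of the genes called lower, 3510 (93.5%) had one in MII oocytes and 2537 (67.6%) in 8-cell embryos. Fewer genes were detected in libraries of 4-cell embryos. After each library was thinned to 1000000 counts, 11700.9 ± 549.8 genes were detected in 4-cell embryos and 15103.5 ± 585.9 in 2-cell embryos (SD, n = 16 each), a difference of -3402.6 (permutation test, p = 2e-05, the smallest the resampling can give, and 2.5e-05 after adjustment over 5 library measures). The 100 most abundant genes of each library took 30.6% of 4-cell and 35.5% of 2-cell counts, so that the most abundant genes took a smaller share in 4-cell libraries, with the same p.

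The largest gains by fold came from genes that were nearly absent before. Bhmt, betaine-homocysteine methyltransferase, which makes methionine, had 22.6, 472 and 707 CPM in 4-cell embryos (here and below lowest, median and highest of 16), against 0, 1.24 and 5.52 CPM in 2-cell embryos. The lowest 4-cell value was that of replicate 11, and the next was 274 CPM in replicate 2. All 4-cell embryos lay above all 2-cell embryos, and the log2 fold change was 7.75 ± 0.39 (edgeR adjusted p = 8.81e-20). Its median was 0 CPM in MII oocytes and 672 CPM in 8-cell embryos. Pdxk, pyridoxal kinase, which activates vitamin B6, had 342, 478 and 832 CPM in 4-cell embryos, against 0, 2.21 and 11.5 CPM in 2-cell embryos, and a log2 fold change of 6.66 ± 0.36. Pmm2, the phosphomannomutase of glycoprotein synthesis, and Tsr2, a chaperone for a ribosomal protein, rose by log2 fold changes of 6.14 ± 0.32 and 6.07 ± 0.30. Fez1, which takes part in transport along microtubules, rose by 6.82 ± 0.48 and had 12.8, 63.7 and 119.7 CPM in 4-cell embryos, against 0, 0 and 2.55 CPM in 2-cell embryos. In each of these genes the stages did not overlap.

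By absolute level the gain was largest in mt-Cytb, a mitochondrial gene described with its list, and next in Gcsh. Gcsh, the lipoyl-carrying H protein of the glycine cleavage system, had 5112, 7927 and 9897 CPM in 4-cell embryos, against 64.01, 235 and 815 CPM in 2-cell embryos, with a median of 0.944 CPM in MII oocytes. It rose by a log2 fold change of 4.51 ± 0.26, and no 4-cell embryo fell within the 2-cell range. Fbxo15, an F-box gene used as a marker of undifferentiated embryonic cells, had 2972, 4813 and 7264 CPM in 4-cell embryos, against 138, 245 and 621 CPM in 2-cell embryos (log2 fold change 3.88 ± 0.19). Eif4e, the cap-binding translation factor, averaged 6285 CPM in 4-cell and 1757 CPM in 2-cell embryos (log2 fold change 1.59 ± 0.10). Timd2, a receptor for ferritin, had 1562, 4063 and 6407 CPM in 4-cell embryos, against 11.2, 43.7 and 181 CPM in 2-cell embryos, and its median went on to 11255 CPM in 8-cell embryos. Prps1, phosphoribosyl pyrophosphate synthetase, rose by 3.18 ± 0.35 and was the least uniform of these at 2 cells, with 45.6, 211 and 1404 CPM.

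The largest losses by level came from transcripts that were abundant at 2 cells. Mphosph6, an exosome-associated RNA-processing factor, had 92.9, 263 and 575 CPM in 4-cell embryos, against 9681, 11729 and 13603 CPM in 2-cell embryos. The gap between the stages was wider than either range, and the log2 fold change was -5.79 ± 0.17 (edgeR adjusted p = 4.33e-25). Spin1, a reader of histone methylation first known as a protein of the oocyte spindle, had 32.03, 80.3 and 396 CPM in 4-cell embryos, against 8309.9, 10630.0 and 12800.0 CPM in 2-cell embryos (log2 fold change -6.92 ± 0.26). Zbed3, a partner of the subcortical maternal complex, had 1.001, 12.2 and 181 CPM in 4-cell embryos, against 9002, 10826 and 14146 CPM in 2-cell embryos. Its log2 fold change was -9.18 ± 0.49, and -9.86 without replicate 1, where its level was highest. Oog3 and Obox5 fell to medians of 49.2 and 19.2 CPM in 4-cell embryos, against 10652 and 9155 CPM in 2-cell embryos. Oog3 was highest at 645 CPM in replicate 14 of the 4-cell embryos, and its log2 fold change was -6.81 ± 0.50 with and -7.44 without that embryo.

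Several transcripts present in every 2-cell embryo were not seen at all at 4 cells. Prr32 had 40.8, 96.4 and 148 CPM in 2-cell embryos and no count in any 4-cell embryo, which makes it at least 1037-fold lower if 3 counts over the group are taken as the floor. By the same measure Iglv1 was at least 982-fold, Serpinb12 at least 805-fold and Clec12a at least 732-fold lower in 4-cell embryos. Ston1, Cd200, Serpinb3a and Gpr149 were at least 592-, 544-, 535- and 495-fold lower. Their medians in MII oocytes were 52.2 CPM for Prr32 and 109 CPM for Gpr149, but 2.61 CPM for Ston1. Ifit1bl2 had 3 counts over the 16 4-cell libraries, which gives a 2-cell over 4-cell ratio of 2990 with a counting interval from 1023 to 14496.

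**Figure D3:**
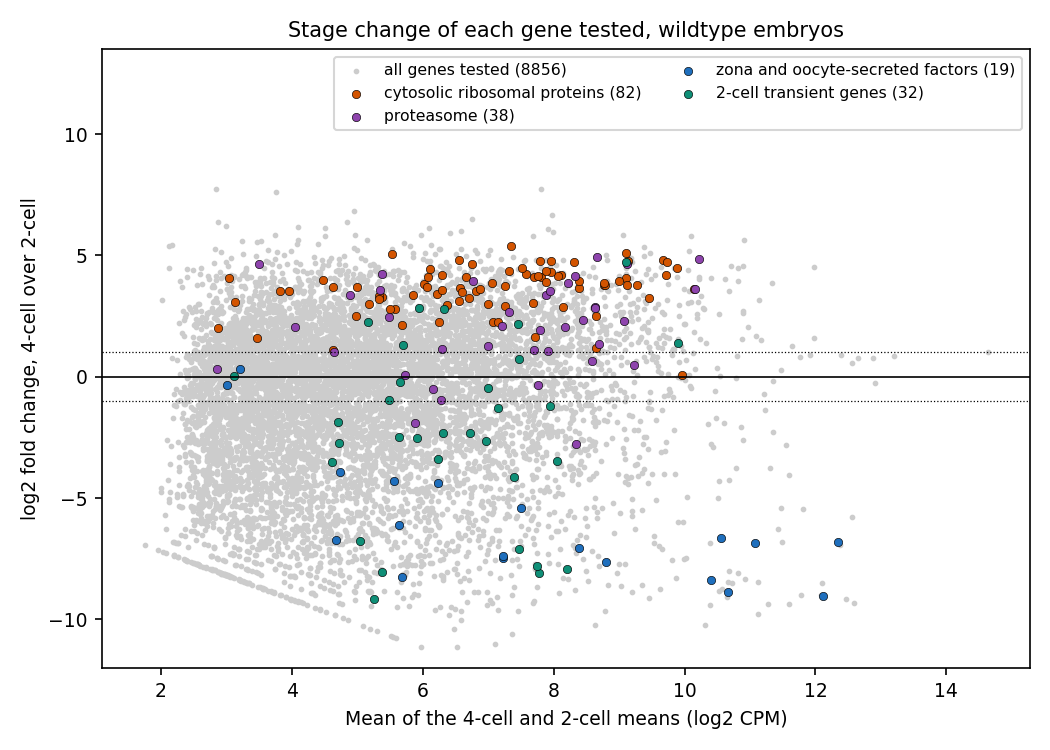
Log2 fold change (4-cell over 2-cell) of each of the 8856 genes tested against its mean level (log2 CPM), with 4 gene lists in colour and dotted lines at a log2 fold change of 1 in either direction. Cytosolic ribosomal protein genes lie above 0 with a median of 3.72 and zona and oocyte-secreted genes have a median of -6.81; the diagonal lower edge is made of genes with no count in 4-cell embryos, whose fitted fold change is set by the prior count.

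Genes of the protein-making machinery moved together and upward. Of 83 genes for proteins of the cytosolic ribosome 82 were tested and 81 rose, with none lower and a median log2 fold change of 3.72, beside 31.8% higher and a median of -0.34 over all genes tested. Together they took 2.65%, 3.73% and 4.46% of the counts of 4-cell embryos, against 0.213%, 0.288% and 0.49997% in 2-cell embryos. Every 4-cell embryo was thus above every 2-cell embryo in this sum. The exception was Rps27l, a p53-induced paralogue of another gene of the list, with a log2 fold change of 0.09 ± 0.12. Ribosomal protein genes have many processed pseudogenes, and in 61 of the 82 most values were not whole numbers, which marks reads shared between near-identical copies. All 21 of the others rose, with a median of 3.57.

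Rpl14, for a protein of the large subunit, and Rps24, for one of the small subunit, show the pattern by embryo. Rpl14 (ENSMUSG00000025794.9, chromosome 9, 120571444 to 120574654, plus strand) had 211, 417 and 571 CPM in 4-cell embryos, against 6.54, 12.9 and 24.5 CPM in 2-cell embryos. The lowest 4-cell embryo was far above the highest 2-cell embryo, and the log2 fold change was 4.76 ± 0.17 (edgeR adjusted p = 3.09e-23). Rps24 (ENSMUSG00000025290.17, chromosome 14, 24490681 to 24496959, plus strand) had 771, 1193 and 1444 CPM in 4-cell embryos, against 41.7, 65.1 and 117 CPM in 2-cell embryos, again with no overlap, and a log2 fold change of 3.77 ± 0.14. In MII oocytes their medians were 6.56 and 8.53 CPM, and in 8-cell embryos 483 and 1396 CPM.

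Ribosomal protein mRNAs are known for a 5′ terminal oligopyrimidine tract, a run of C and T at the transcript start through which their translation is regulated. The promoters of these 2 genes are shown because the list rose as a block; they come from RefSeq on GRCm38.p6 and run from 250 bases before to 50 bases after the annotated start. Capitals mark the unbroken run of C and T that crosses the start. The run is 9 bases long in Rps24 (chr14:24490428-24490727, plus strand) and 14 bases long in Rpl14 (chr9:120571267-120571566, plus strand).
Rps24: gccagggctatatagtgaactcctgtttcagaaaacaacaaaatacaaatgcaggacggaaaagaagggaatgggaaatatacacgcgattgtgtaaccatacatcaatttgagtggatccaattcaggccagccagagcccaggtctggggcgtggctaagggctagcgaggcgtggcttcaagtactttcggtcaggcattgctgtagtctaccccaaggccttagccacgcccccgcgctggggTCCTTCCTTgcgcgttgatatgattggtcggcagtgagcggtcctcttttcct
Rpl14: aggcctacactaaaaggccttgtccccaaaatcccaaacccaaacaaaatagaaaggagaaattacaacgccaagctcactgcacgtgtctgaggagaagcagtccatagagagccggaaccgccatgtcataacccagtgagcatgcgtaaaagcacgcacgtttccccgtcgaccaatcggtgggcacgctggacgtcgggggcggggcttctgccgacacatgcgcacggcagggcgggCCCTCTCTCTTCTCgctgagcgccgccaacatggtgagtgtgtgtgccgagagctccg

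Assembly of the ribosome rose with its parts. Of 77 genes of ribosome biogenesis and the nucleolus 74 were tested, and 70 rose with none lower (median log2 fold change 2.65). Their summed share was 2.96%, 3.50% and 3.85% in 4-cell embryos, against 0.623%, 0.739% and 0.877% in 2-cell embryos, with no overlap. Nolc1, a nucleolar phosphoprotein that chaperones small nucleolar particles, had 213, 310.3 and 486 CPM in 4-cell embryos, against 11.1, 16.3 and 28.9 CPM in 2-cell embryos (log2 fold change 3.93 ± 0.15). Gnl3, nucleostemin, a nucleolar GTPase, had 627, 1108 and 1368 CPM in 4-cell embryos, against 24.9, 48.6 and 76.7 CPM in 2-cell embryos (log2 fold change 4.25 ± 0.16). Unlike the ribosomal proteins, its median was lower again in 8-cell embryos, at 719 CPM. Wdr43, part of the small-subunit processome, rose by 3.14 ± 0.12. All 5 tested subunits of RNA polymerase I with a Polr1 symbol and all 9 with a Polr3 symbol, of RNA polymerase III, rose, with medians of 2.69 and 2.02; these families were chosen after their values were seen.

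The words found in promoters of these genes were counted as a description. CCGGAAG, the core of the site bound by GABPA and other ETS factors, was searched on both strands of the same 300-base windows. It was present in 33 of 78 promoters of the ribosome biogenesis list (42.3%), in 17 of 37 of the proteasome list (45.9%) and in 25 of 71 of the RNA polymerase II and Mediator list (35.2%), against 2910 of 32851 promoters in all (8.86%). Among the other lists of genes with enough promoter entries it ranged from 0 of 27 promoters of the DNA methylation list to 25 of 74 (33.8%). That highest share was in the splicing and the mitochondrial ribosomal protein lists. It was 1 of 44 (2.27%) in the trophectoderm and Hippo list and 3 of 53 (5.66%) in the glycolysis and pyruvate list. In the cytoskeleton list, where 5 of 30 genes were higher and 12 lower, it was 10 of 34 (29.4%). In the oxidative phosphorylation list, where 38 of 66 were higher and 5 lower, it was 16 of 69 (23.2%). The share over all promoters is not that of the genes tested, and a link of the word to the change was not tested. A list gene can have more than one promoter entry, and a match is a string of letters and not a bound site. Promoters of the ribosomal protein list could not be counted, since fewer than 80% of its genes have an entry. Many other lists were left out for the same reason, among them those of translation factors, mRNA decay, genome activation and pluripotency. So were the maternal-effect, zona, mRNA storage and compaction lists and that of the transient programme, in which most genes fell. In Nolc1 (chr19:46075597-46075896, plus strand, GRCm38.p6, RefSeq) the word lies from 14 to 8 bases before the start and is in capitals.
Nolc1: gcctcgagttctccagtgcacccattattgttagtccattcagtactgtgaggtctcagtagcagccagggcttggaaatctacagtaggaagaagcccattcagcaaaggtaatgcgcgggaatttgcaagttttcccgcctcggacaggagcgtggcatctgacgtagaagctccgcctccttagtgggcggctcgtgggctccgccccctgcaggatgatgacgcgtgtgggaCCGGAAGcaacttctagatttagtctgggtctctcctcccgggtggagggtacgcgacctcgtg

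Factors that load the ribosome followed. Of 50 translation factor genes, all tested, 40 rose and 1 fell, Eif1b, with a median log2 fold change of 2.35. Eif3m, a subunit of the initiation factor eIF3, had 766, 1048 and 1506 CPM in 4-cell embryos, against 1.88, 15.7 and 36.7 CPM in 2-cell embryos. The stages were separated by a wide gap, and the log2 fold change was 5.86 ± 0.24 (edgeR adjusted p = 5.38e-22). Eif3a, the scaffold subunit of the same factor, had 1071, 1792 and 2251 CPM in 4-cell embryos, against 42.99, 79.03 and 169.9 CPM in 2-cell embryos (log2 fold change 4.12 ± 0.17). In all, 11 of 12 tested genes with an Eif3 symbol rose (median 3.95). Eif4a3, a helicase of the exon junction complex, rose by 3.30 ± 0.13.

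The proteasome, which degrades ubiquitin-tagged proteins, changed in the same direction. Of 38 tested genes 29 rose and 2 fell, Psme4 and Psmg1, with a median log2 fold change of 2.21. Psme4 is an alternative activator (PA200) known for its role in male germ cells, and Psmg1 an assembly chaperone. Psma6, a subunit of the 20S core, had 1787, 2407 and 2675 CPM in 4-cell embryos, against 29.96, 63.9 and 109 CPM in 2-cell embryos. No embryo of one stage came near those of the other, and the log2 fold change was 4.84 ± 0.16 (edgeR adjusted p = 1.83e-24). Psmd14, the deubiquitinase of the lid, had 538, 802 and 1100.4 CPM in 4-cell embryos, against 11.9, 22.1 and 33.8 CPM in 2-cell embryos (log2 fold change 4.92 ± 0.16). With RLE factors, another scaling, 23 proteasome genes were called higher and 3 lower.

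Ubiquitin-conjugating enzymes and cullin ligases, which feed the proteasome, did not move as a block: 15 of 44 rose and 17 fell, near the shares of all genes. Ube2l3, an E2 enzyme, had 688, 876 and 1183 CPM in 4-cell embryos, against 14.5, 25.3 and 46.6 CPM in 2-cell embryos (log2 fold change 4.82 ± 0.14), with most of its values not whole. Ube2d3, another E2 enzyme, fell to 659, 785 and 1178 CPM in 4-cell embryos, against 3707, 5216 and 6279 CPM in 2-cell embryos (log2 fold change -2.82 ± 0.11). Cul1, the scaffold of SCF ligases, fell to 67.1, 182 and 346 CPM in 4-cell embryos, against 2324, 3149 and 3649 CPM in 2-cell embryos (log2 fold change -4.24 ± 0.18), while Cul3, the scaffold of another ligase family, rose by 2.31 ± 0.34.

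Chaperones rose in 23 of 37 genes and fell in 3 (median log2 fold change 1.95). Hspa8, the constitutive Hsp70, had 1444, 3594 and 4351 CPM in 4-cell embryos, against 60.5, 99.8 and 261 CPM in 2-cell embryos (log2 fold change 4.57 ± 0.23). Cct5, a subunit of the chaperonin that folds actin and tubulin, rose by 3.32 ± 0.15, and all 9 tested genes with a Cct symbol rose (median 2.56). Tubulin genes went the other way, with 8 of 12 lower and 1 higher (median -2.12); these 2 families were also chosen after their values were seen. Splicing genes rose in 44 of 65 and fell in 3 (median 1.54). Snrpb, a core protein of spliceosomal particles, had 72.04, 196 and 256 CPM in 4-cell embryos, against 1.06, 3.56 and 14.9 CPM in 2-cell embryos (log2 fold change 5.06 ± 0.28). Transport through the nuclear pore rose in 29 of 50 genes and fell in 9 (median 1.41), and autophagy and the vacuolar ATPase rose in 27 of 41 and fell in 5 (median 1.53). Gabarapl2 and Map1lc3b, which coat autophagosomes, rose by 4.56 ± 0.20 and 4.47 ± 0.22, both with most values not whole; Map1lc3a, with mostly whole values, rose by 4.60 ± 0.21.

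**Figure D4:**
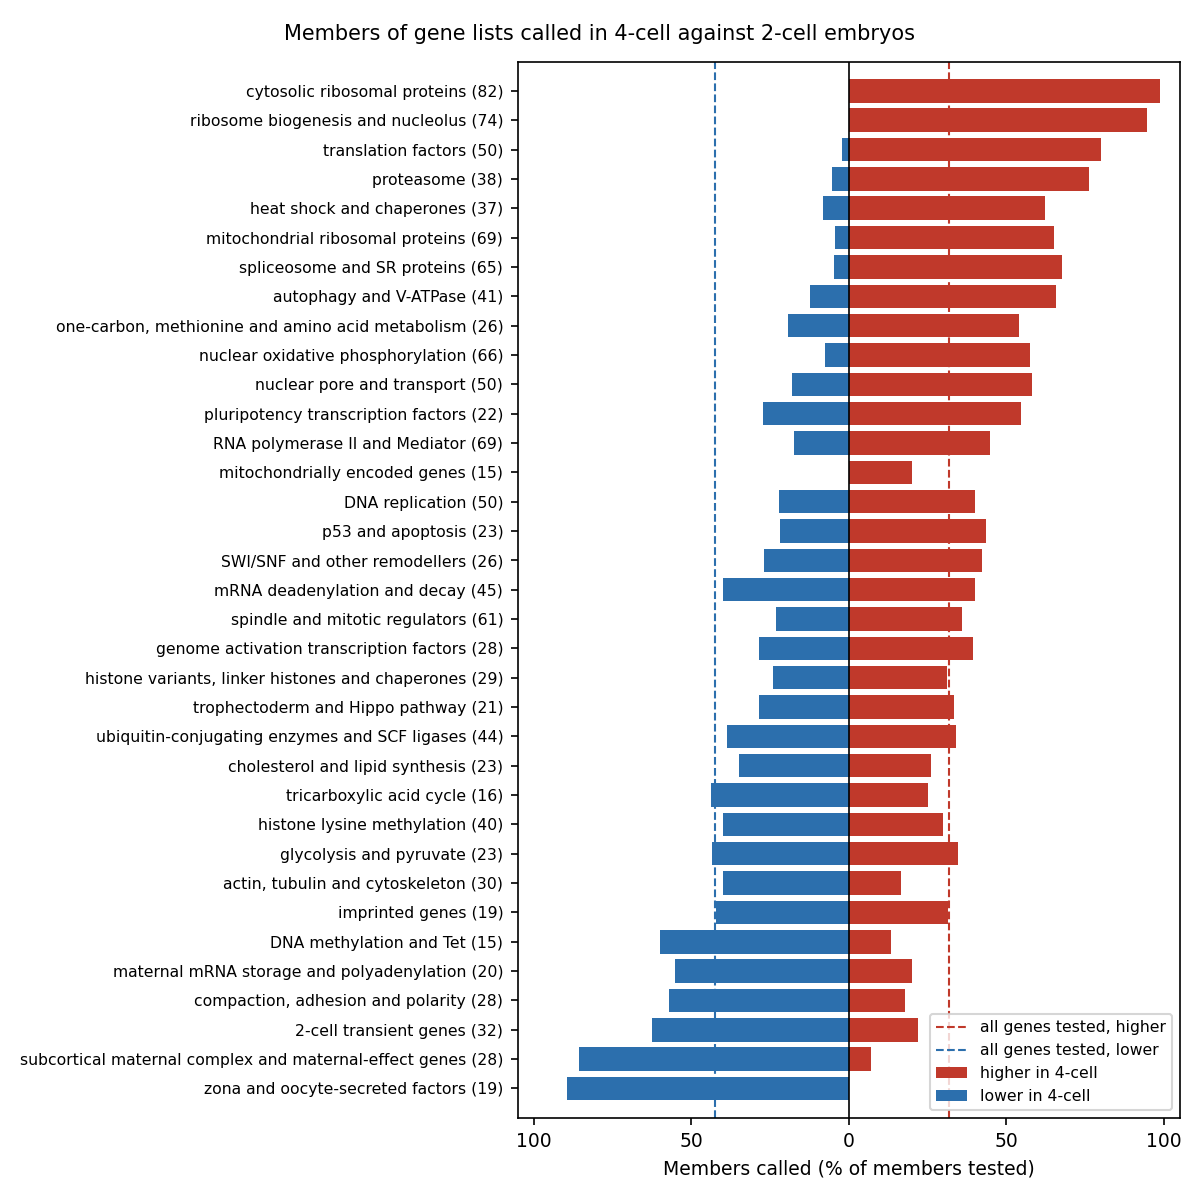
Percent of the tested members of each gene list called higher (right, red) and lower (left, blue) in 4-cell against 2-cell embryos, with the number tested in parentheses and dashed lines at the shares over all genes tested (31.8% higher, 42.4% lower); lists are ordered by median log2 fold change. Ribosomal proteins are at the top with 81 of 82 higher, and zona and oocyte-secreted factors at the bottom with 17 of 19 lower.

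Mitochondria showed the same direction in their nuclear-encoded parts. Mitochondrial ribosomal proteins rose in 45 of 69 genes and fell in 3 (median log2 fold change 1.92). Mrpl20, of the large subunit, had 292, 402 and 561 CPM in 4-cell embryos, against 1.03, 5.23 and 15.4 CPM in 2-cell embryos (log2 fold change 5.81 ± 0.22). Nuclear genes of oxidative phosphorylation rose in 38 of 66 and fell in 5 (median 1.42). Atp5j, a subunit of ATP synthase, had 138, 303 and 391 CPM in 4-cell embryos, against 6.58, 13.240 and 30.8 CPM in 2-cell embryos (log2 fold change 3.92 ± 0.20).

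Genes of the mitochondrial genome itself took 9.24% of the counts of 4-cell embryos at the median and 3.66% in 2-cell embryos, but few passed the fold threshold: 3 of 15 rose and none fell, with a median log2 fold change of 0.79. This count depended on the scaling. With RLE factors 0 of 15 were called and with library totals alone 10 of 15, all higher. mt-Cytb, cytochrome b, had 25297, 36465 and 46234 CPM in 4-cell embryos, against 9444, 12828 and 26725 CPM in 2-cell embryos. The ranges overlapped, the log2 fold change was 1.04 ± 0.14, and in all 15 genes most values were not whole.

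In central carbon metabolism glycolysis and pyruvate genes rose in 8 of 23 and fell in 10, and genes of the tricarboxylic acid cycle rose in 4 of 16 and fell in 7. These shares are near the 31.8% higher and 42.4% lower over all genes tested. G6pdx, the X-linked entry enzyme of the pentose phosphate pathway, fell to 0, 17.8 and 58.8 CPM in 4-cell embryos, against 407, 727 and 1065 CPM in 2-cell embryos (log2 fold change -5.42 ± 0.33). Ldhb, lactate dehydrogenase B, fell by 5.36 ± 0.35 on the log2 scale. Pdhb, of pyruvate dehydrogenase, rose by 1.89 ± 0.17, and within the cycle Mdh2 and Idh3b rose by 3.79 ± 0.23 and 5.39 ± 0.39 while Cs, citrate synthase, fell to 41.2, 79.5 and 118 CPM in 4-cell embryos, against 244, 303 and 503 CPM in 2-cell embryos. One-carbon and amino acid metabolism rose in 14 of 26 genes and fell in 5 (median 1.47), with Bhmt and Odc1, ornithine decarboxylase (3.61 ± 0.16), among the higher and Mthfd2, a mitochondrial folate enzyme (-4.67 ± 0.21), among the lower. Cholesterol and lipid synthesis rose in 6 of 23 (26.1%) and fell in 8 (34.8%). In that list Acsl4 rose by 4.42 ± 0.33 and its paralogue Acsl3, which like it activates fatty acids, changed by -2.51 ± 0.18.

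Oocyte products had the lowest median of the lists. Of 25 genes for the zona pellucida and other oocyte-secreted or oocyte-restricted factors 19 were tested, and 17 fell with none higher (median log2 fold change -6.81, beside 42.4% lower over all genes). Their summed share was 0.00713%, 0.0203% and 0.101% in 4-cell embryos, against 2.41%, 3.54% and 4.07% in 2-cell embryos. Bmp15, the growth factor through which the oocyte signals to its follicle cells (ENSMUSG00000023279.7, chromosome X, 6314107 to 6320721), had 1.73, 5.66 and 48.7 CPM in 4-cell embryos, against 1566, 2677 and 4004 CPM in 2-cell embryos. Even the highest 4-cell embryo was far below the lowest 2-cell embryo, and the log2 fold change was -8.37 ± 0.38 (edgeR adjusted p = 7.14e-21). Oosp3 and Oog1 fell by 8.89 ± 0.45 and 6.84 ± 0.30 on the log2 scale. Zp2, for a zona protein that sperm bind, had 0, 4.97 and 32.1 CPM in 4-cell embryos, against 69.8, 136 and 187 CPM in 2-cell embryos. Zp3 and Gpr3, the receptor that keeps oocytes in meiotic arrest, did not pass the test; Zp3 had 1.502, 8.77 and 38.3 CPM in 4-cell embryos and 2.98, 7.85 and 13.8 CPM in 2-cell embryos.

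Maternal-effect genes are those whose product must be in the egg for the embryo to develop. In this list 24 of 28 fell and 2 rose (median log2 fold change -3.46). Bcl2l10, an oocyte member of the Bcl-2 family, and Uchl1, an ubiquitin hydrolase, fell to medians of 1.53 and 3.56 CPM in 4-cell embryos, against 2731 and 211 CPM in 2-cell embryos. The log2 fold change of Bcl2l10 was -9.41 ± 0.52, and -10.4 without replicate 1. Among the subunits of the subcortical maternal complex, Ooep fell by 6.89 ± 0.39, Nlrp5 by 4.62 ± 0.36 and Padi6, of the cytoplasmic lattices, by 1.46 ± 0.26 on the log2 scale. Dppa3, which protects the maternal genome from demethylation, did not pass: it had 5178, 7880.2 and 10550.0 CPM in 4-cell embryos, against 6049, 7828 and 9628 CPM in 2-cell embryos, and a log2 fold change of -0.27 ± 0.12, below the fold threshold. The 2 genes that rose were Trim28 (1.80 ± 0.27), a co-repressor of retroelements and imprints, and Smarca4 (1.70 ± 0.28), the ATPase Brg1.

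Of 20 tested genes for the storage and polyadenylation of maternal mRNA 11 (55%) fell and 4 (20%) rose. Over all genes tested 42.4% were lower and 31.8% higher. Dazl, an RNA-binding protein of germ cells, had 2.85, 16.3 and 39.6 CPM in 4-cell embryos, against 856, 1489 and 2125 CPM in 2-cell embryos, with no overlap (log2 fold change -6.56 ± 0.30). Cpeb1 and Ybx2, which hold mRNA in store in the oocyte, fell by 3.51 ± 0.34 and 5.82 ± 0.46. The general poly(A) polymerase Papola went the other way, with 479, 691 and 992 CPM in 4-cell embryos, against 50.3, 96.2 and 129 CPM in 2-cell embryos (log2 fold change 2.66 ± 0.13), as did Cpsf3, the nuclease that cuts the 3′ end before the tail is added (2.79 ± 0.23).

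Genes of mRNA decay went both ways. Of 45 genes 18 (40%) rose and 18 (40%) fell, not far from the 31.8% higher and 42.4% lower over all genes tested. Btg4, the adaptor that brings the CCR4-NOT deadenylase to maternal mRNA (ENSMUSG00000032056.10, chromosome 9, 51105878 to 51119875), had 5.01, 16.5 and 97.4 CPM in 4-cell embryos, against 6173, 8842 and 10516 CPM in 2-cell embryos. The highest 4-cell embryo was still far below all 2-cell embryos, and the log2 fold change was -8.99 ± 0.32 (edgeR adjusted p = 9.71e-24). Cnot6l and Cnot7, 2 catalytic subunits of the deadenylase, fell by 6.14 ± 0.33 and 4.29 ± 0.17, and Dcp2, the decapping enzyme, by 4.56 ± 0.18 on the log2 scale. Among the higher genes were some of the exosome, the 3′ to 5′ nuclease. Exosc3, Exosc7 and Exosc9 rose by 2.05 ± 0.13, 2.51 ± 0.22 and 2.33 ± 0.15, and Dis3, its catalytic subunit, by 2.72 ± 0.29. With RLE factors 12 genes of the list were called higher and 19 lower.

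Genes of the transient 2-cell programme mostly fell, in 20 of 32, with 7 higher (median log2 fold change -2.33). Zscan4d, of a family of zinc finger proteins that marks this programme, had 0, 0.583 and 15.3 CPM in 4-cell embryos, against 259.9, 519.9 and 1566 CPM in 2-cell embryos, and a log2 fold change of -7.92 ± 0.54. All 5 Zscan4 genes fell, and in each of them most values were not whole, so that reads are shared between copies. Zscan4e had 3 counts over the 16 4-cell libraries, a 2-cell over 4-cell ratio of 837 with a counting interval from 286 to 4060. Tcstv1 fell to 0, 1.49 and 20.9 CPM in 4-cell embryos, against 224, 349 and 548 CPM in 2-cell embryos. Duxf3, of the Dux family that starts the programme, had no count in 4-cell embryos and was at least 71.6-fold lower there, with no whole value above 0; it did not enter the test.

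The promoter of Zscan4b is shown as an example of this programme (chr7:10905001-10905300, minus strand, GRCm38.p6, RefSeq), with the word TATAAA, from 31 to 26 bases before the start, in capitals. That word, on the strand of the gene and from 45 to 10 bases before the start, is present in 2.25% of all promoters of the table. Zscan4b had 0, 0 and 2.59 CPM in 4-cell embryos, against 13.6, 87.9 and 192 CPM in 2-cell embryos; its log2 fold change was -8.05 ± 0.52, and -8.74 without 4-cell replicate 2.
Zscan4b: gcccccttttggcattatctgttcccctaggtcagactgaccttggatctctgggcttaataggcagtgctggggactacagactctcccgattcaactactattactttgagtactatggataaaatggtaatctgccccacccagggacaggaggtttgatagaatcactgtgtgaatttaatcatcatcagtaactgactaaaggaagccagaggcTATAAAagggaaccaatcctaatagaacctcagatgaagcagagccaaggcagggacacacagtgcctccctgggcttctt

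Part of the programme did not fall in step. Pramel7 and Pramel6, which counter DNA methylation in the mouse blastocyst, rose: Pramel7 had 442, 992 and 1756 CPM in 4-cell embryos, against 1.94, 27.99 and 115 CPM in 2-cell embryos (log2 fold change 4.72 ± 0.35), and Pramel6 changed by 2.18 ± 0.27. Tdpoz2 and Tdpoz4 rose by 2.85 ± 0.47 and 2.26 ± 0.44, while Tdpoz1, at -0.22 ± 0.41, and Tdpoz5 did not pass. Usp17lb had 0, 20.01 and 948 CPM in 4-cell embryos, against 23.8, 111 and 424 CPM in 2-cell embryos, and did not pass. Replicate 11 weighed on several values. Without it the log2 fold change was -4.86 for Zfp352, against -3.48 with it, -6.39 against -4.13 for Tcstv3 and -6.35 against -3.41 for Usp17lc. It was -7.69 against -7.09 ± 0.47 for Tcstv1, and Usp17lb, at -1.32, then passed. Without replicate 11, 22 genes of the list fell with a median of -2.69.

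Transcription factors tied to genome activation changed places within a family. The Obox genes encode oocyte-specific homeobox proteins that act in genome activation in the mouse. Obox1 fell to 1.01, 7.395 and 68.1 CPM in 4-cell embryos, against 3440.1, 6332 and 8620.4 CPM in 2-cell embryos (log2 fold change -9.38 ± 0.44). Obox6 rose, with 845, 1982 and 2941 CPM in 4-cell embryos, against 19.9, 125 and 384 CPM in 2-cell embryos (log2 fold change 3.52 ± 0.27). Over the family Obox1, Obox2, Obox3, Obox5 and Obox7 fell and Obox6 and Obox8 rose. Most values were not whole in 6 of the 7, so that a member's own level is uncertain.

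In the whole list of these factors 11 of 28 (39.3%) rose and 8 (28.6%) fell (median log2 fold change 0.26). Over all genes tested 31.8% were higher and 42.4% lower. Dppa2 and its partner Dppa4, which act upstream of Dux in mouse embryonic stem cells, rose: Dppa2 had 1230.2, 2223 and 3574 CPM in 4-cell embryos, against 106, 187 and 310.0 CPM in 2-cell embryos (log2 fold change 3.32 ± 0.15), and Dppa4 changed by 3.20 ± 0.23. Gabpa, the ETS factor whose site was counted above, had 277, 795 and 1237 CPM in 4-cell embryos, against 16.5, 96.9 and 555 CPM in 2-cell embryos, with overlapping ranges (log2 fold change 2.11 ± 0.31). Nfyb, Nr5a2 and Ell2 rose by 3.82 ± 0.25, 2.01 ± 0.18 and 2.64 ± 0.18. Klf17 and Ctcf stayed under the fold threshold, at -0.29 ± 0.20 and -0.34 ± 0.12.

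Pluripotency factors rose in 12 of 22 (54.5%) and fell in 6 (27.3%), with a median of 1.10. Over all genes tested 31.8% were higher and 42.4% lower. Nanog had 1.13, 10.2 and 32.2 CPM in 4-cell embryos, against 0.5699, 3.12 and 7.79 CPM in 2-cell embryos, with overlapping ranges (log2 fold change 1.51 ± 0.37). Klf5 and Tdgf1, a co-receptor for Nodal, rose by 2.64 ± 0.39 and 4.25 ± 0.48. Pou5f1, the gene of Oct4, fell and was at or near 0 in most 4-cell embryos, with 0, 0 and 3.52 CPM in 4-cell embryos, against 3.81, 10.8 and 23.2 CPM in 2-cell embryos, and a median of 7.25 CPM in 8-cell embryos. It has processed pseudogenes, and most of its values were not whole. Tcl1, a co-activator of Akt kinase that was counted with this list, fell to 1.18, 5.85 and 156 CPM in 4-cell embryos, against 2834, 4318 and 6660.4 CPM in 2-cell embryos, with a log2 fold change of -8.46 ± 0.54, and of -9.53 without replicate 1.

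In several pairs of related genes, picked after the values were seen, a member expressed in oocytes fell and a more general one rose. Wee2, the oocyte form of the kinase that restrains Cdk1, had 0, 2.47 and 38.7 CPM in 4-cell embryos, against 1123, 1614 and 2036 CPM in 2-cell embryos (log2 fold change -8.76 ± 0.46, and -9.59 without replicate 1), and Wee1 had 40.1, 119 and 179 CPM in 4-cell embryos, against 1.45, 26.3 and 80.002 CPM in 2-cell embryos (log2 fold change 1.73 ± 0.28). Among cap-binding proteins, Eif4e1b, the oocyte form, fell to 0, 0 and 1.18 CPM in 4-cell embryos, against 25.2, 54.7 and 81.9 CPM in 2-cell embryos, whereas Eif4e rose to 4466, 6485 and 7341 CPM, against 1248, 1799.6 and 1972 CPM in 2-cell embryos. These log2 fold changes were -8.18 ± 0.37 and 1.59 ± 0.10. Kpna7, an importin α of the egg, fell by 8.00 ± 0.43 while Kpna2 rose by 1.51 ± 0.13. Aurkc and Aurka, kinases of meiotic and mitotic spindles, changed by -2.88 ± 0.33 and 1.96 ± 0.21. Not every pair exchanged the leading member. At 2 cells the median of Kpna2 was already 1021.5 CPM, against 213.6 CPM for Kpna7, and Eif4e was likewise above Eif4e1b. Wee2 was above Wee1 at 2 cells, and Aurkc, at a median of 186 CPM, was above Aurka, at 93.6 CPM.

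Further pairs of related genes also changed in opposite directions, without a sorting into oocyte and general forms. Cnot7 and Cnot8, alternative deadenylase subunits, changed by -4.29 ± 0.17 and 2.05 ± 0.13, and Btg4 and Btg1 by -8.99 ± 0.32 and 2.80 ± 0.34. Smarca2 and Smarca4, the ATPases of SWI/SNF complexes, changed by -5.83 ± 0.31 and 1.70 ± 0.28. Tet3, the dioxygenase that oxidises methylated cytosine in the zygote, fell to 0, 0.947 and 4.004 CPM in 4-cell embryos, against 39.6, 66.5 and 159 CPM in 2-cell embryos. Tet1, of the same family, rose to 28.3, 96.1 and 159 CPM in 4-cell embryos, against 5.55, 15.1 and 36.2 CPM in 2-cell embryos. Their log2 fold changes were -5.87 ± 0.39 and 2.16 ± 0.24. Ccne2 and Ccne1, cyclins of the entry into S phase, changed by -2.10 ± 0.18 and 1.86 ± 0.23. Since these pairs were chosen for their opposite changes, they describe the data and support no general rule.

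**Figure D5:**
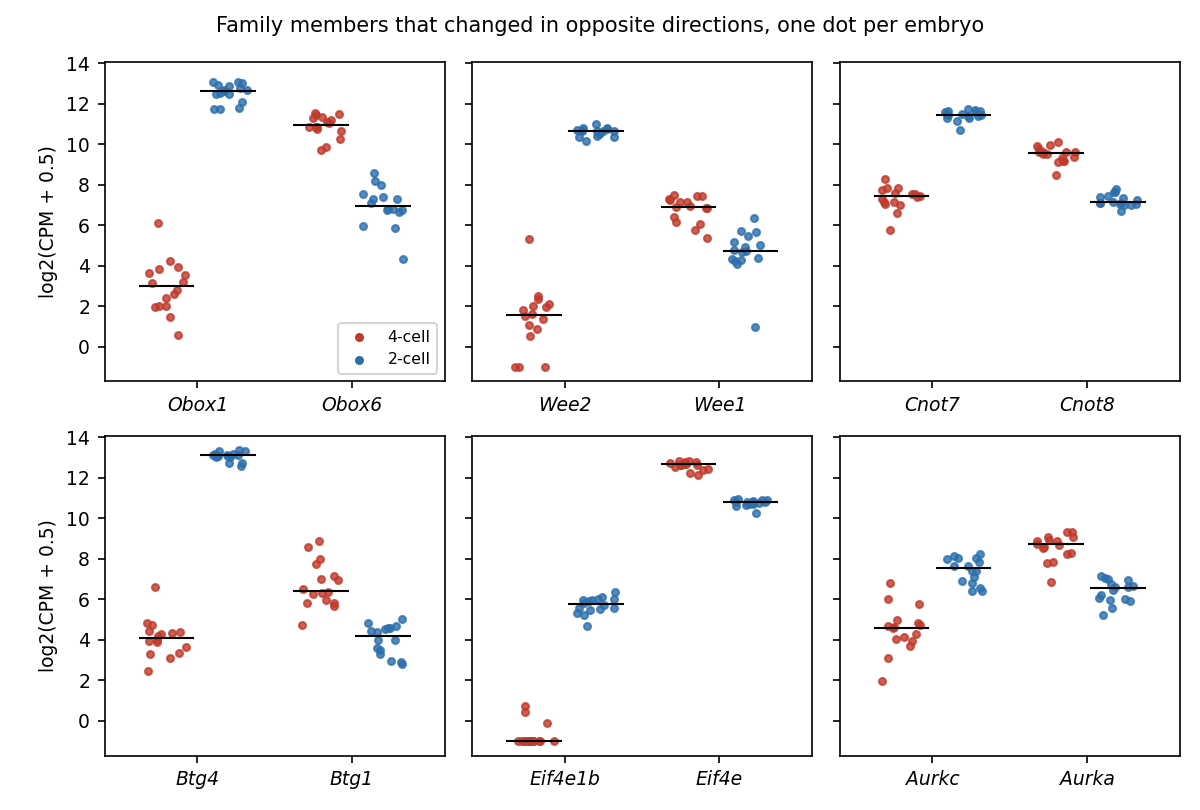
Levels of 6 pairs of related genes in each 4-cell (red, left of each gene) and 2-cell (blue, right) embryo, as log2 of CPM plus a pseudocount of 0.5; lines are medians of 16 embryos. In each pair the left gene is lower and the right gene higher in 4-cell embryos, from Obox1 (log2 fold change -9.38 ± 0.44) and Obox6 (3.52 ± 0.27) to Aurkc (-2.88 ± 0.33) and Aurka (1.96 ± 0.21).

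Cell division genes moved in both directions, with 22 of 61 spindle and mitotic regulators (36.1%) higher and 14 (23.0%) lower. Over all genes tested these shares were 31.8% and 42.4%. The median log2 fold change of the list was 0.38. Cdc20, an activator of the anaphase-promoting complex, had 164, 281 and 472 CPM in 4-cell embryos, against 3.81, 14.8 and 40.7 CPM in 2-cell embryos (log2 fold change 3.84 ± 0.25). Cdk1 and Kif11, the mitotic kinase and a spindle motor, rose by 2.53 ± 0.24 and 2.53 ± 0.19. Pttg1, securin, fell to 113, 438 and 618 CPM in 4-cell embryos, against 2264, 5514 and 6823 CPM in 2-cell embryos (log2 fold change -3.77 ± 0.23). Plk4, the kinase that starts centriole assembly, fell by 3.79 ± 0.22, and Nuf2, of the kinetochore, by 4.22 ± 0.23, whereas its binding partner Ndc80 rose by 2.51 ± 0.20. With RLE factors 13 of the list were called higher and 18 lower. DNA replication genes rose in 20 of 50 and fell in 11; Gins3, of the replicative helicase, rose by 5.41 ± 0.32 and Rpa3, of the single-strand binding protein, fell by 4.69 ± 0.25.

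The core transcription list rose in 31 of 69 genes and fell in 12 (median log2 fold change 0.86). Ccnh, the cyclin of the TFIIH kinase, had 139, 188 and 291 CPM in 4-cell embryos, against 4.42, 15.5 and 26.5 CPM in 2-cell embryos (log2 fold change 3.37 ± 0.18), and Taf3, of TFIID, fell by 2.59 ± 0.14 on the log2 scale. Histone lysine methylation rose in 12 of 40 and fell in 16, near the 31.8% higher and 42.4% lower over all genes tested, and remodellers rose in 11 of 26 and fell in 7. Wdr5, a core subunit of H3K4 methyltransferases, rose by 2.54 ± 0.12, and Dpy30, another subunit of the same complexes, changed by -2.18 ± 0.15. Among histone chaperones Set rose, with 1329, 2122 and 2651 CPM in 4-cell embryos, against 21.3, 60.1 and 205 CPM in 2-cell embryos (log2 fold change 4.41 ± 0.26), and Npm2, the oocyte nucleoplasmin, fell to 19.4, 39.6 and 106 CPM in 4-cell embryos, against 162, 249.7 and 301 CPM in 2-cell embryos. H1foo, the oocyte linker histone, fell by 6.10 ± 0.44.

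DNA methylation genes fell in 9 of 15 and rose in 2. Uhrf1, which recruits the maintenance methyltransferase, had 0.592, 3.25 and 7.59 CPM in 4-cell embryos, against 18.97, 33.3 and 73.2 CPM in 2-cell embryos, and Dnmt1 itself had 2.38, 5.51 and 15.9 CPM in 4-cell embryos, against 14.2, 28.2 and 42.7 CPM in 2-cell embryos. The ranges of Dnmt1 overlapped and those of Uhrf1 did not. The log2 fold change of Dnmt1 was -2.40 ± 0.22 and that of Uhrf1 was -3.57 ± 0.29. Zfp57, which guards imprints, fell by 3.89 ± 0.35. Of imprinted genes themselves 6 of 19 were higher and 8 lower, again near the shares over all genes. Igf2r rose by 4.17 ± 0.38 and Gnas fell by 4.91 ± 0.39.

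In the list of compaction, adhesion and polarity 16 of 28 (57.1%) fell and 5 (17.9%) rose (median log2 fold change -1.36). Over all genes tested 42.4% were lower and 31.8% higher. Pard3, a polarity scaffold, fell to 0, 4.74 and 20.4 CPM in 4-cell embryos, against 92.6, 151 and 192 CPM in 2-cell embryos. Cdh1, E-cadherin, had 0, 3.45 and 17.02 CPM in 4-cell embryos, against 2.42, 7.68 and 23.2 CPM in 2-cell embryos, with overlapping ranges (log2 fold change -1.43 ± 0.37). Rhoa, a small GTPase, rose to 523, 1010.2 and 1417 CPM in 4-cell embryos, against 59.9, 160.0 and 177 CPM in 2-cell embryos (log2 fold change 2.50 ± 0.15).

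The trophectoderm and Hippo list rose in 7 of 21 (33.3%) and fell in 6 (28.6%). Over all genes tested 31.8% were higher and 42.4% lower. Tead4, the factor that trophectoderm needs, had 24.2, 41.8 and 82.2 CPM in 4-cell embryos, against 0, 0.172 and 2.55 CPM in 2-cell embryos, with no overlap (log2 fold change 5.82 ± 0.39). Its co-activator Yap1 fell to 18.5, 43.3 and 68.1 CPM in 4-cell embryos, against 90.3, 122 and 302 CPM in 2-cell embryos (log2 fold change -1.92 ± 0.18). Stk3 fell by 5.79 ± 0.38 and Stk4, the other Hippo kinase, rose by 1.67 ± 0.29. In FGF signalling 4 of 11 genes (36.4%) rose and 5 (45.5%) fell, near the shares over all genes. Fgf4 rose by 4.50 ± 0.50, and Mapk3 and Spry4, a feedback inhibitor, fell by 8.00 ± 0.38 and 6.25 ± 0.31. In the list of p53 and cell death 10 of 23 (43.5%) rose and 5 (21.7%) fell. Mdm4, an inhibitor of p53, fell to 295, 381 and 745 CPM in 4-cell embryos, against 4130.2, 5456 and 8654 CPM in 2-cell embryos (log2 fold change -4.04 ± 0.15), and Trp53 itself, at -0.15 ± 0.30, did not pass.

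Genes known only by clone names, which start with RP23 or RP24 and carry no symbol, were mostly lower. Of 13110 listed, 1112 were tested, of which 240 (21.6%) were higher and 670 (60.3%) lower, with a median log2 fold change of -2.37; whether this differs from other genes was not tested. Counts of genes without a match in the GENCODE M21 annotation took 5.27% of 4-cell libraries and 13.95% of 2-cell libraries on average, while protein-coding genes took 93.0% and 84.8% (permutation test, p = 2e-05 for both, the smallest possible). No source used here states whether reads were counted by strand, so such genes, where they overlap another, cannot be told apart from it.

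Markers of other cells were checked, since cumulus cells or sperm can stick to the egg. Of 18 markers of cumulus and granulosa cells 1 passed the filter on low counts, Gja1, with 3.96, 93.2 and 124 CPM in 4-cell embryos, against 0.552, 4.22 and 18.7 CPM in 2-cell embryos; it encodes a gap junction protein that the embryo makes as well, and its median was 103 CPM in 8-cell embryos. Of 11 sperm markers 2 passed, Ldhc, which rose by 2.10 ± 0.42, and Odf2, which fell by 2.48 ± 0.18. None of 10 markers of blood and fibroblasts passed. The summed level of the cumulus list was 0.000791% to 0.0131% of counts in 4-cell and 0.00257% to 0.00756% in 2-cell embryos, and that of the sperm list 0.00260% to 0.0130% in 4-cell and 0.00648% to 0.0178% in 2-cell embryos. Of 8 oocyte markers 7 were lower and 0 higher in 4-cell embryos.

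The same step in embryos of knockout mothers gave a check on other embryos. There 2918 of 8699 genes tested (33.5%) were higher and 3548 (40.8%) lower in 4-cell embryos by the same rule. Of the genes called higher in wildtype 2647 were also tested there, and 2438 (92.1%) were called higher. Of those called lower in wildtype 3525 were tested there, and 3181 (90.2%) were called lower. No gene higher in wildtype was called lower in knockout, and 6 genes lower in wildtype were called higher. One of the 16 2-cell knockout libraries was shallow, with 526987 counts.

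The change itself differed between genotypes in a minority of genes. Of 10748 genes tested for the difference, 444 (4.13%) had a more positive change in wildtype and 1229 (11.4%) a more negative one at an edgeR adjusted p under 0.05. Among genes called lower, Naa30, an N-terminal acetyltransferase subunit, fell to 11.4, 37.6 and 81.4 CPM in 4-cell wildtype embryos, against 461, 574 and 818 CPM in 2-cell wildtype embryos. Its log2 fold change was -4.08 ± 0.19 in wildtype and -2.29 ± 0.16 in knockout, a difference of -1.75 (edgeR adjusted p = 5.84e-07). Ube2d2a, Ccdc6 and Fam199x likewise fell further in wildtype, with differences of -1.13, -1.55 and -2.11. Among genes called higher, Rpl17, Fubp1 and Grpel1 rose more in wildtype, with differences of 1.20, 1.83 and 1.20, and Hmgb1 rose less, with -1.09. With replicates 1 to 8 of each group alone 234 genes differed positively and 412 negatively, and with replicates 9 to 16 alone 45 and 292.

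The neighbouring steps were set beside this one. Genes that changed in each were counted by the same rule, in a fit of the 2 stages of that step alone. From MII oocytes to 2 cells 2405 of 8662 genes (27.8%) were higher and 1725 (19.9%) lower, and from 4 to 8 cells 656 of 7283 (9.01%) were higher and 822 (11.3%) lower. The difference of the change between steps was tested in a fit of all 4 wildtype stages, in which the steps share the 2-cell or the 4-cell libraries. The difference from the following step was positive in 3753 of 10631 genes (35.3%) and negative in 3598 (33.8%). That from the preceding step was positive in 2227 (20.9%) and negative in 5814 (54.7%). Psma6, Psmd7 and Gnl3 had the strongest evidence of a change more positive than that of the following step, by the smallest p, and Mphosph6, Lmo7 and Cul1 of one more negative. Lmo7, which links adhesion to actin, had 1.69, 4.88 and 14.1 CPM in 4-cell embryos, against 270.1, 391 and 510.1 CPM in 2-cell embryos.

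For some genes the step turned back the one before. Cnbp, a nucleic acid-binding protein that promotes translation, had a median of 842 CPM in MII oocytes, and 1777, 3003 and 3997 CPM in 4-cell embryos, against 96.05, 146 and 235 CPM in 2-cell embryos. Dnttip2, a nucleolar factor, had a median of 707 CPM in MII oocytes and rose to a median of 1156 CPM in 4-cell embryos, against 54.2 CPM in 2-cell embryos. Dnajc3, an inhibitor of eIF2 kinases, stood at 554 CPM in MII oocytes, and rose to a median of 223 CPM in 4-cell embryos, against 27 CPM in 2-cell embryos. In the 3 genes the change was more positive than that of the preceding step. Ifit1bl2, Gng3 and Mphosph6 had the smallest p among genes whose change was more negative than that of the preceding step; Gng3, a G protein subunit, had a median of 5.295 CPM in MII oocytes and of 71.5 CPM in 2-cell embryos, and at most 1.04 CPM in any 4-cell embryo.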

How the data were processed

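Estimated counts for 41300 genes in 128 libraries were deposited. Per the submitters' processing notes the tools were Trimmomatic 0.32, STAR 2.5.1a and featureCounts 1.5.1 with mm10; 30.56% of values above 0 are not whole numbers, as arises when reads that match several places are divided. They were rounded to whole numbers. Columns were matched to samples by title, and 0 columns had no sample. The labels' protocols and series text name different SMART-Seq kits, so the strand of the library is uncertain.

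Genes were tested with edgeR 4.0.16 (R 4.3.3; TMM factors, robust quasi-likelihood test, its filter on low counts, Benjamini-Hochberg adjustment over all genes tested) on the 32 wildtype 4-cell and 2-cell libraries. A called gene has an adjusted p below 0.05 and a log2 fold change of 1 or more in size. The difference from knockout was tested as an interaction over 4 groups, and that from adjacent steps over the 4 wildtype stages, at an adjusted p below 0.05 alone; shared stages make those contrasts dependent. Library measures were compared by permutation (scipy 1.17.1), adjusted over 5 measures. In simulated counts for 8985 genes, 58 of 100 genes changed by a log2 fold change of 1 and 94 of 98 changed by 2 had an adjusted p below 0.05, as did 7 of 8787 unchanged genes. Few genes were changed in the simulation, by design as many up as down. It therefore gives no error rate for data in which most genes change, as here, and does not test the scaling.

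Named genes were those with the largest folds and differences of level among genes of at least 20 CPM, up to 3 called genes per list by p, and those that differed most from knockout and from adjacent steps. Other genes, families and pairs were picked after their values were seen, and the members and all lists were chosen with earlier results of these data known. Gene positions and types come from GENCODE M21, where 26830 symbols matched. Alternatives covered scaling, filters, tools (DESeq2 1.42.0, limma 3.58.1), thresholds, depth, replicate subsets and the replicate number as a block. The total counts, from 1690323 to 2914445 per library used, limit the precision of genes near 1 CPM.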

Additional observations from a re-analysis of the deposited data

Results flagged for a closer look

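The results set out here are genes whose change from 2 to 4 cells differed between the 2 genotypes by the interaction test (edgeR, adjusted p below 0.05 over 10748 genes). Values are the log2 fold change in wildtype minus that in knockout embryos, so that a negative value is a smaller gain or a deeper loss in wildtype. Both genotypes were collected when control embryos had reached the stage, and fewer genes differed in replicates 9 to 16 alone than in replicates 1 to 8 alone. What sets these differences was not tested.

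In 6 genes the 2 genotypes were called in opposite directions, lower in wildtype and higher in knockout 4-cell embryos. Cyp2c44 had a log2 fold change of -2.39 in wildtype and 1.47 in knockout, a difference of -3.82. In Nup62cl the changes were -2.03 and 1.50, a difference of -3.51, and in Jade1 they were -1.57 and 1.22, a difference of -2.75. The differences were -2.62 in RP23-74N13.2, -2.50 in Trap1a and -2.42 in Slc17a5. All 6 are at low levels, and in each the ranges of wildtype 4-cell and 2-cell embryos overlapped. In 4 of the 6 the wildtype call was lost in alternative fits. In Nup62cl the adjusted p was 0.128 with the replicate block, 0.311 with voom and 0.145 in replicates 9 to 16 alone. In Trap1a the wildtype log2 fold change was -1.15, and -0.28 (adjusted p = 0.728) in replicates 9 to 16 alone, -0.90 with library totals, -0.97 with upper-quartile factors, -1.05 (adjusted p = 0.0611) with no filter, and -1.03 and -1.05 (adjusted p = 0.0573 and 0.0544) without 2-cell replicate 6 or 13. In RP23-74N13.2 it was -0.96 with library totals, -0.98 with upper-quartile factors, -0.92 without 2-cell replicate 4 and -1.08 (adjusted p = 0.0924) in replicates 1 to 8 alone, and in Slc17a5 it was -1.20 (adjusted p = 0.0713) in replicates 1 to 8 alone. RP23-74N13.2, Trap1a and Slc17a5 also missed a test against a 2-fold change (glmTreat), with adjusted p of 0.209, 0.234 and 0.0635.

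Over all 10748 genes 4.13% had a positive and 11.4% a negative difference. Among genes called lower in wildtype 18.3% differed in either direction. Whether any list departs from these shares was not tested. Among 28 maternal-effect genes the difference was positive in 4 and negative in 3, and among 19 genes of zona and oocyte-secreted factors positive in 0 and negative in 5. The difference did not pass in Zbed3 (0.63) or Rfpl4 (1.16). Among named egg transcripts with a deeper loss in wildtype the difference was -1.55 in Oog1, -1.65 in Oog3, -1.93 in Oosp3, -0.59 in Mphosph6, -1.10 in Spin1, -1.81 in Uchl1 and -1.81 in Wee2. Of 45 genes of mRNA decay 2 had a positive and 8 a negative difference, with -1.17 in Btg4, -1.47 in Cnot6l and -1.05 in Dcp2. Among transcripts with no count in wildtype 4-cell embryos it was -2.41 in Prr32, -2.48 in Iglv1, -2.65 in Serpinb12, -1.79 in Clec12a, -1.78 in Ston1, -4.78 in Serpinb3a, -3.01 in Gpr149 and -2.48 in Duxf3. In these 8 genes the fitted value depends on the prior count. Further losses that were deeper in wildtype were those of Cul1 (-1.27), Mdm4 (-1.13), Smarca2 (-0.99), Gnas (-2.38), Pard3 (-1.08), Acsl3 (-0.87), Naa30 (-1.75), Ube2d2a (-1.13), Ccdc6 (-1.55) and Fam199x (-2.11).

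Of 28 genome activation factors 1 had a positive and 8 a negative difference, beside 4.13% and 11.4% over all genes. Whether this list departs from those shares was not tested. Gains were smaller in wildtype in several genes of the early embryo, with a difference of -1.52 in Obox6, -2.02 in Obox8, -1.29 in Dppa4, -1.29 in Gabpa, -1.70 in Klf5, -2.18 in Pramel6 and -1.57 in Tdpoz4. In Tdpoz5, which was called in neither genotype, it was -1.56. Other gains were smaller in wildtype by -1.31 in Pdxk, -1.35 in Timd2, -1.38 in Cul3, -0.52 in Psmd14, -0.70 in Gabarapl2, -0.88 in Ccne1, -0.51 in Cnbp, -1.58 in Set and -1.09 in Hmgb1.

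A positive difference was less common, in 4.13% of the 10748 genes, against 11.4% negative. Gains were larger in wildtype by 1.20 in Rpl17, 1.20 in Grpel1, 1.83 in Fubp1, 0.93 in Aurka, 1.14 in Cdc20, 0.91 in Ccnh, 0.89 in Exosc7 and 0.59 in Kpna2. Losses were shallower in wildtype by 0.92 in Cs, 1.06 in Padi6, 1.36 in Zfp57 and 3.32 in Usp17lc, whose wildtype value rests in part on 4-cell replicate 11. In Dppa3, under the fold threshold in wildtype, the difference was 0.46.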

How the results depend on the processing

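In each alternative fit run, 0 of the genes called in one direction were called in the other, although 3 called genes changed sign, without a call, with voom. The counts of higher and lower genes were 2354 and 4093 with RLE factors, 3040 and 3573 with upper-quartile factors and 3111 and 3496 with library totals, which moved the median log2 fold change of all genes by -0.36, 0.18 and 0.24. DESeq2 gave 2361 and 4060 and voom 2811 and 3947. Without a filter on low counts 5753 and 10995 of 29773 genes were called, since more genes were tested. In the reported fit of 8856 genes, 1654 were higher and 2845 lower by a log2 fold change of 2 or more. Leaving out each library in turn gave 2790 to 2907 higher and 3754 to 3935 lower genes. It gave differences of -93271 to -2024 in total counts, -3492 to -3332 genes detected, -5.21 to -4.55 percentage points in the 100 most abundant genes, 8.06 to 8.27 in protein-coding genes and -8.84 to -8.59 in genes without an annotation match.

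At a mean of 5 CPM in place of 1, 47.2% of the genes called higher were present in MII oocytes and 98.4% in 8-cell embryos, and of those called lower 83.2% and 41.7%. For the difference from knockout, replicates 1 to 8 alone gave 234 positive and 412 negative genes and replicates 9 to 16 alone 45 and 292; the cause was not tested.

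Same-numbered embryos did not deviate together (16 correlations from -0.054 to 0.111, 1 of them above 0.1, and 2 of 16 embryos correlated best with their own number). No pairing of 4-cell with 2-cell embryos by number was thus seen. Whether the numbers mark mothers or batches of collection was not tested. With the replicate block 2792 genes were higher and 3888 lower, against 2866 and 3677 in knockout, and 356 and 1028 differed from knockout. Among named genes, Tdpoz5 and Usp17lb passed without 4-cell replicate 11, at log2 fold changes of -1.19 and -1.32, Trap1a was at -1.74 without 4-cell replicate 9 and at -0.28 in replicates 9 to 16 alone, and mt-Cytb did not pass with RLE factors, at 0.68. Depth limits genes of low level.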

Other observations

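In the list of actin, tubulin and other cytoskeletal genes 5 of 30 were higher and 12 lower, and Actb, cytoplasmic actin, had medians of 37.5 CPM in 4-cell and 32.1 CPM in 2-cell embryos with a log2 fold change of -0.02. Among histone variants and chaperones 9 of 29 were higher and 7 lower. H3f3b, a gene of the replacement histone H3.3, had medians of 2673 CPM in 4-cell and 2523 CPM in 2-cell embryos, with a log2 fold change of -0.17. Neither of these 2 genes passed the test. In the list of sex-linked genes 5 of 8 were higher and 2 lower.

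Transcripts tied to the sex chromosomes varied between embryos. Summed over the Y-linked genes of the list, the level had a median of 135.6 CPM and a highest value of 235 CPM in 4-cell embryos, with 3 of 16 at 0, against a median of 9.62 CPM and a highest value of 68.1 CPM in 2-cell embryos, with 1 of 16 at 0. Xist, which silences an X chromosome, had a highest level of 129 CPM in 4-cell embryos, with 6 of 16 at 0, against 33.2 CPM in 2-cell embryos, with 1 of 16 at 0. In 8-cell embryos the highest Xist level was 481 CPM and 8 of 16 embryos were at 0. Both are described only, and Xist did not enter the test.

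By chromosome, 24.0% of 321 tested genes on the X were higher and 50.5% lower, beside 31.8% and 42.4% over all genes tested. Chromosome 13 was close to the X, with 25.8% of 431 genes higher and 49.7% lower. Chromosome 11 had 40.3% of 621 genes higher and 31.6% lower. No test was run on these shares. Spread between embryos, as the coefficient of variation of genes with a mean of at least 20 CPM at the stage, had a median of 47.8% over 773 genes called lower at the 4-cell stage and of 29.4% over 2801 at the 2-cell stage. For genes called higher it was 34.2% over 2374 genes at 4 cells and 38.4% over 1028 genes at 2 cells.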
